A study of Homo sapiens with 6 samples.

Results

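HuR replicate 1 and HuR replicate 2 are the 2 HuR libraries among 6 PAR-CLIP libraries from HEK293 cells, a human embryonic kidney line, and were chosen by their labels. Both came from cells that stably expressed doxycycline-inducible HuR, were fed 4-thiouridine (4SU) with doxycycline and were UV crosslinked; the protein was immunopurified with the FLAG M2 antibody and the RNA was trimmed with RNase T1. The other libraries were 3 slices of a gel of FLAG-GFP immunoprecipitates (G20, G35 and G45, called background here) and Total, RNA of lysates crosslinked and digested in the same way, without immunoprecipitation and depleted of rRNA. HuR was therefore an induced protein in these cells, and whether the replicates were separate cultures is not stated in the sources used here. Replicate 1 held 9525265 reads at 2411483 sites and replicate 2 held 32111810 reads at 4024972 sites, of 10639684 sites in the series. A site is a stretch of the genome covered by overlapping reads, whatever their number. Replicate 2 was 3.37 times deeper, so levels are given as reads per 1000000 reads of the library (RPM) and 3 reads correspond to 0.315 RPM in replicate 1 and 0.0934 RPM in replicate 2. Each side of the comparison is 1 library, so no test was possible; 95% intervals cover counting error only.

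HuR, encoded by ELAVL1, is an RNA-binding protein that recognises U-rich and AU-rich stretches in introns and in the 3'UTRs of mRNAs, and is best known for stabilising short-lived mRNAs. In PAR-CLIP, 4SU that is crosslinked to a protein is read as C instead of T by reverse transcriptase, so T-to-C conversion events are used as a mark of crosslinking. The paper states that 4SU that is not crosslinked can convert as well, so a single event is not proof of a crosslink. Total, without immunoprecipitation, had 36.9 events per 100 reads. RNase T1 cuts after G, and a fragment released by it ends in G. Of the markers of HEK293 cells, LIN28B had 858 reads in replicate 1 and 7982 in replicate 2, IGF2BP1 had 540 and 4870, VIM 71 and 677, and PAX2 91 and 172, while NEFM had 8 and 1. The markers of liver, blood, lymphoid and glial cells were low, with at most 35 reads in replicate 1 and 151 in replicate 2 (PTPRC in both) and HBA1 at 0 in both.

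The clusters below, from replicate 2, lay on a replicate 1 cluster, overlapped no background site and were at most 30 bases long. Among such clusters they had the most reads in replicate 2, and they serve as examples of shared sites. They are printed on the RNA strand as DNA letters, 5′ to 3′, from the clusters table of replicate 2 (hg19), with runs of 3 or more T in capitals.
ENSG00000268205, an lncRNA, chr19:57819256-57819284 (+), noncoding exon: tatatactcaTTTTattcattagtctaag
ZFP36L1, chr14:69255071-69255091 (-), 3'UTR: cttaTTTaacttatcaaaacg
OGT, chrX:70766417-70766439 (+), 3'UTR: cttaaaataaTTTTaTTTacaag
Between genes, chr10:62563980-62564009 (+): tatatgtctccaTTTTcttgggcaaggttg
EZR, chr6:159187259-159187280 (-), 3'UTR: ctatatactaTTTatatacaag

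Each of these clusters holds a T run and ends in G, and 4 of the 5 have the same start and end in both libraries. The ZFP36L1 cluster, in the mRNA of an AU-rich element binding protein, had 12 reads with 11 events in replicate 1 and 722 reads with 805 events in replicate 2. At the OGT cluster, in the mRNA of the enzyme that adds O-GlcNAc to proteins, 8 reads carried 9 events in replicate 1 and 606 reads carried 650 events in replicate 2. The EZR cluster, in the mRNA of the membrane linker ezrin, had 9 reads with 9 events and 567 reads with 665 events. Conversion per read was close between the libraries at these clusters. It was 91.7 to 112.5 events per 100 reads in replicate 1 and 107 to 118 in replicate 2. All replicate 1 clusters had at least 2 conversion locations, so conversion there was in part fixed by the choice of clusters. The replicate 1 values rest on as few as 8 reads. The level was higher in replicate 2 at all 5, at 0.84 to 5.14 RPM in replicate 1 and 17.7 to 28.2 RPM in replicate 2, and clusters of replicate 2 had been ranked by their reads.

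The libraries spread their reads over sites in different ways. In replicate 1, 75.4% of sites had a single read, and the 7400 sites with 100 or more reads, 0.307% of all sites, held 56.2% of the reads. In replicate 2, 13.4% of sites had a single read, the 1790986 sites with 5 to 24 reads held 47.7% of the reads, and the 15478 sites with 100 or more reads held 18.8%. Replicate 2 drawn down to the reads of replicate 1 would, by binomial expectation, keep 2690 sites with 100 or more reads, fewer than the 7400 observed in replicate 1, and 41.5% of its sites would have a single read. That expectation treats reads as independent molecules, which reads without molecular identifiers are not.

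Conversion agreed at sites with few reads and parted at sites with many. At sites with a single read, replicate 1 had 68.8 conversion events per 100 reads and replicate 2 had 74.0. With 2 to 4 reads the values were 74.9 and 79.2. In the class of 5 to 24 reads, replicate 1 had 66.8 and replicate 2 had 88.0. With 25 to 99 reads they were 45.6 and 101. Sites with 100 or more reads had 34.1 and 80.2, a mean of 57.1 ± 32.6 (SD, n = 2). Events per read thus fell with reads per site in replicate 1 from the class of 2 to 4 reads on, and rose in replicate 2 up to the class of 25 to 99 reads.

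T content followed the same course. The mean T content of sites was 34.1% in replicate 1 and 36.4% in replicate 2 at a single read, and 34.7% and 36.3% at 2 to 4 reads. It was 32.6% and 39.1% in the class of 5 to 24 reads and 26.0% and 43.7% in that of 25 to 99 reads. Sites with 100 or more reads held 24.6% T in replicate 1 and 40.8% in replicate 2. The G content of the sites with 100 or more reads was 30.4% in replicate 1 and 18.3% in replicate 2. Sites of a single read ended in G in 86.2% of cases in replicate 1 and 88.9% in replicate 2, whereas at 100 or more reads these shares were 27.6% and 80.5%. In the background slices 23.9% to 35.7% of sites with 100 or more reads ended in G, and in Total 87.0%.

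**Figure D1:**
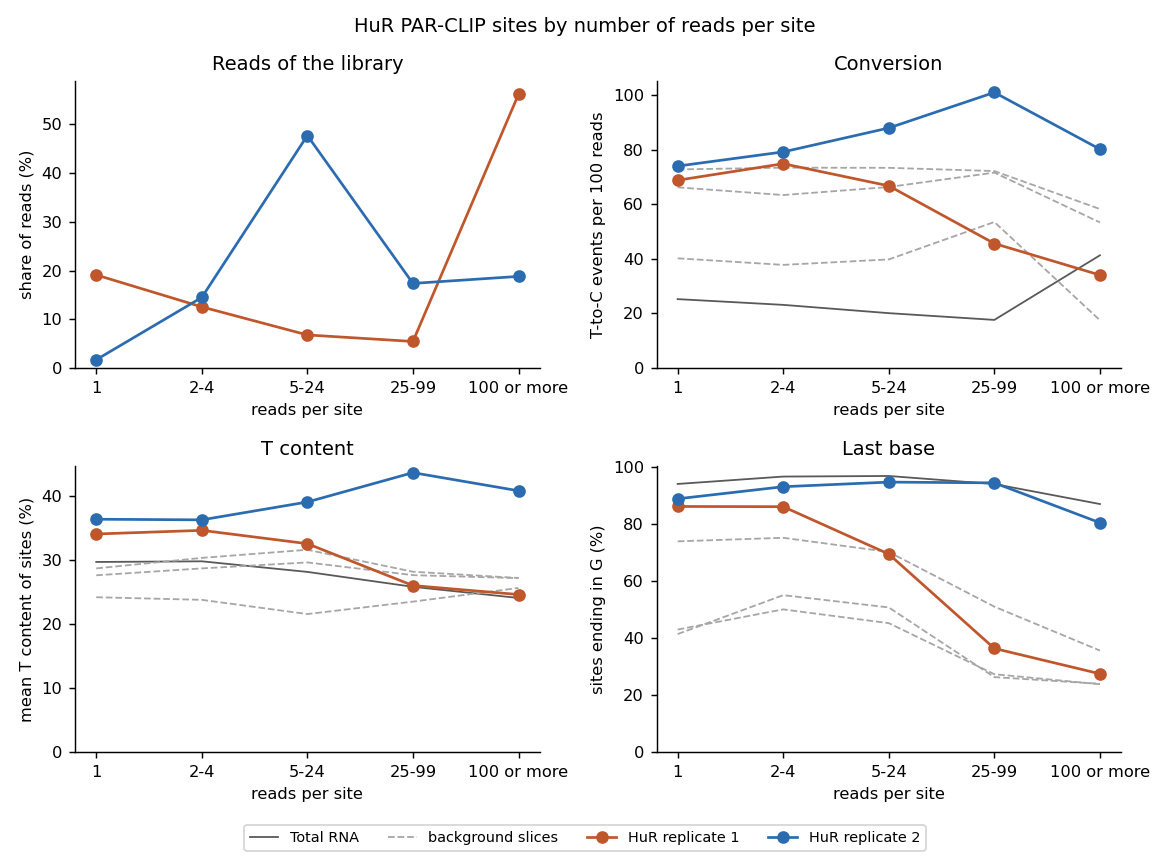
Share of the library's reads (%), T-to-C events per 100 reads, mean T content of sites (%) and share of sites ending in G (%) by number of reads per site; orange and blue points are HuR replicates 1 and 2, the grey line is Total and dashed lines are the background slices (not drawn in the first panel). In conversion and T content the HuR libraries lie close at 1 to 4 reads per site and part above that. In share of reads they differ already at a single read, with 19.1% in replicate 1 and 1.68% in replicate 2. At 100 or more reads replicate 1 falls to 34.1 events per 100 reads, 24.6% T and 27.6% of sites ending in G.

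T-rich sequence differed between the libraries already at sites of a single read, and more at sites with many. TTTTT, searched on the strand of the site in 31 bases of GRCh37 centred on its midpoint, was present at 12.3% of single-read sites of replicate 1 and 20.6% of replicate 2. At 100 or more reads it was present at 2.64% and 35.5% of sites, against 2.76% in Total and 2.55% to 3.24% in the background slices. ATTTA, the core of AU-rich elements, was present at 6.78% and 7.11% of single-read windows and at 2.24% and 12.0% of windows at 100 or more reads. A match describes the sequence and is not evidence of a bound element.

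The sites with 100 or more reads fell into distinct kinds by conversion. In replicate 1, 4150 of the 7400 had under 2 events per 100 reads (56.1%), and 2167 had 80 to 120 (29.3%). In replicate 2, 925 of 15478 had under 2 events per 100 reads (5.98%) and 10750 had 80 to 120 (69.5%). The sites of replicate 1 under 2 events per 100 reads held 33.2% of all reads of that library, and those of replicate 2 held 2.36%. They were short and poor in T in both libraries, with a median length of 17 nt and 22.0% T in replicate 1 and 19 nt and 24.2% T in replicate 2. The sites with 80 to 120 events per 100 reads had a median length of 19 nt and 27.8% T in replicate 1, and 43 nt and 42.3% T in replicate 2, so the converted sites differed as well. The highest value at any site was 200 events per 100 reads in both libraries.

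**Figure D2:**
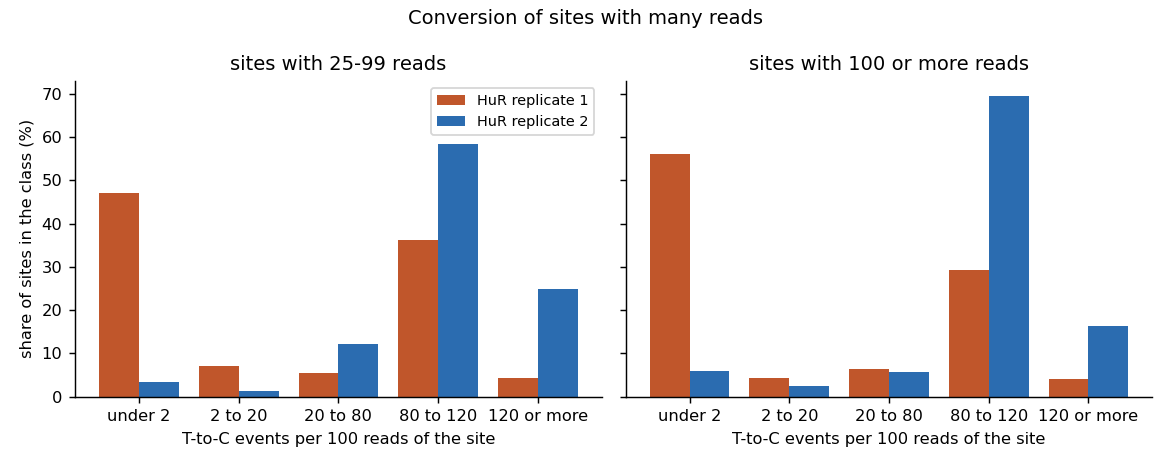
Share of sites (%) in 5 bins of T-to-C events per 100 reads, for sites with 25 to 99 reads (left) and with 100 or more reads (right); orange bars are HuR replicate 1 and blue bars HuR replicate 2. At 100 or more reads, 56.1% of the sites of replicate 1 and 5.98% of those of replicate 2 have under 2 events per 100 reads.

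Whether a site was found in the other library also depended on its reads. A site counted as found when it shared 1 bp on the same strand. Of the sites with a single read, 26.9% of replicate 1 were found in replicate 2 and 10.4% of replicate 2 in replicate 1. At 5 to 24 reads the shares were 67.3% and 23.4%. Sites with 25 to 99 reads were found in 57.7% (56.8% to 58.7%, Wilson) and 70.4% (70.2% to 70.7%) of cases. The shares were 71.8% (70.8% to 72.8%) and 95.3% (95% to 95.6%) among sites with 100 or more reads. These shares move with depth and with the length of the sites. Background overlap rose with reads as well, from 5.84% to 88.2% of sites in replicate 1 and from 6.30% to 71.3% in replicate 2, from the first class to the last. Without the sites that overlapped background, the share of sites with 25 or more reads found in the other library fell from 63.5% to 16.6% in replicate 1 and was 68.7% instead of 73.0% in replicate 2. Of the 9174 sites of replicate 1 with 25 or more reads and under 2 events per 100 reads, 47.5% were found in replicate 2, and of the 6465 sites with 90 or more events per 100 reads 81.0% were.

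**Figure D3:**
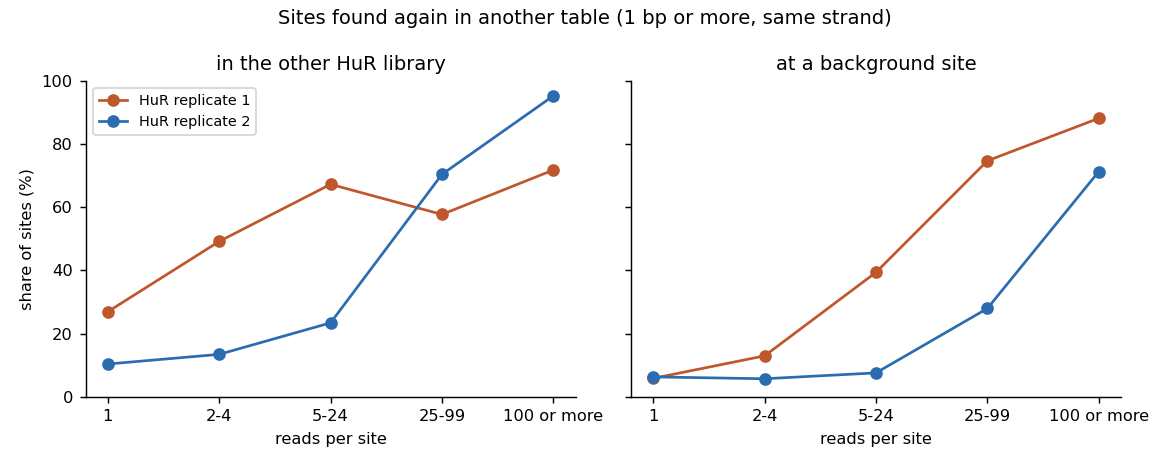
Share of sites (%) found in the other HuR library (left, with 95% Wilson intervals, which are smaller than the points) and at a background site (right) by number of reads per site; orange is HuR replicate 1 and blue HuR replicate 2. At 100 or more reads 95.3% of the sites of replicate 2 and 71.8% of those of replicate 1 are found in the other library, and 71.3% and 88.2% lie at background.

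Where the libraries shared a site, conversion was alike at the pairs with high or very low conversion in replicate 1, less so at those between, and reads were weakly related. Taking each site with its best partner gave 778156 pairs, of which 59.1% had the same 3′ end to the base and 50.2% the same 5′ end. Over the 52111 pairs with 5 or more reads in both libraries, Pearson's r of log2 RPM was 0.29 and Spearman's rho was 0.23; sites of 1 library share its depth, so r is a description. Of these pairs 51.6% lay at a background site, and of the 5872 pairs with 25 or more reads in both 96.7% did. The conversion of those 5872 pairs therefore describes mostly sites also found in background. Among them, 3459 had 80 or more events per 100 reads in replicate 1, and 3351 of these (96.9%) had 80 or more in replicate 2. Of the 1518 pairs under 2 events per 100 reads in replicate 1, 1224 (80.6%) were under 2 in replicate 2 and 17 (1.12%) had 80 or more. Of the 895 pairs with 2 to 80 in replicate 1, 534 (59.7%) had 2 to 80 in replicate 2 and 269 (30.1%) had 80 or more. Summed over the 5872 pairs there were 48.0 events per 100 reads in replicate 1 and 66.5 in replicate 2, and over the 52111 pairs 45.5 and 79.0. Pairs in 3'UTRs with 5 or more reads in both had a median of 7 reads in replicate 1 and 56 in replicate 2, and 74.6% were higher in replicate 2 by RPM. Pairs between genes had medians of 14 and 24 reads, and 29.3% were higher in replicate 2.

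By region, replicate 1 had less of its reads in introns and 3'UTRs. Introns held 41.8% of the reads of replicate 1 and 60.4% of those of replicate 2, a mean of 51.1% ± 13.1 (SD, n = 2). 3'UTRs held 3.32% and 9.11%, a mean of 6.21% ± 4.10 (SD, n = 2). The order was the opposite in coding sequence, with 3.69% and 1.28%, on the strand opposite a gene, with 21.6% and 10.1%, and between genes, with 26.3% and 15%. By Wilson interval the 3'UTR shares ran from 3.30% to 3.33% and from 9.10% to 9.12%. Counted once each, sites were split over the regions in nearly the same shares, with 59.5% and 60.4% in introns and 4.72% and 4.38% in 3'UTRs. The positions themselves were mostly not shared, as 33.1% of replicate 1 sites and 19.7% of replicate 2 sites were found in the other library. With only the sites under 25 reads, introns held 58.3% and 64.4% of the reads and 3'UTRs 6.18% and 5.06%, so the order of the 3'UTR shares turned.

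Conversion was lower in replicate 1 in coding sequence, 5'UTRs, introns and 3'UTRs. Replicate 1 had 18.8 events per 100 reads in coding sequence and replicate 2 had 73.9, and a single site, in HASPIN, held 131194 of the 351043 coding reads of replicate 1 with 422 events. In 5'UTRs the values were 26.5 and 95, in introns 63.2 and 95.6, and in 3'UTRs 82.1 and 102. Of the reads of replicate 1 in coding sequence 79.9% lay at sites with 100 or more reads, against 30.1% in replicate 2; in 3'UTRs these shares were 21.3% and 37%. In the class of 5 to 24 reads, 3'UTR sites carried 96.2 and 101 events per 100 reads and sites opposite a gene 38.5 and 51.2, the highest and the lowest regional value in both libraries. At 100 or more reads, 25.7% of the sites of replicate 2 lay in 3'UTRs and 1.45% of those of replicate 1.

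**Figure D4:**
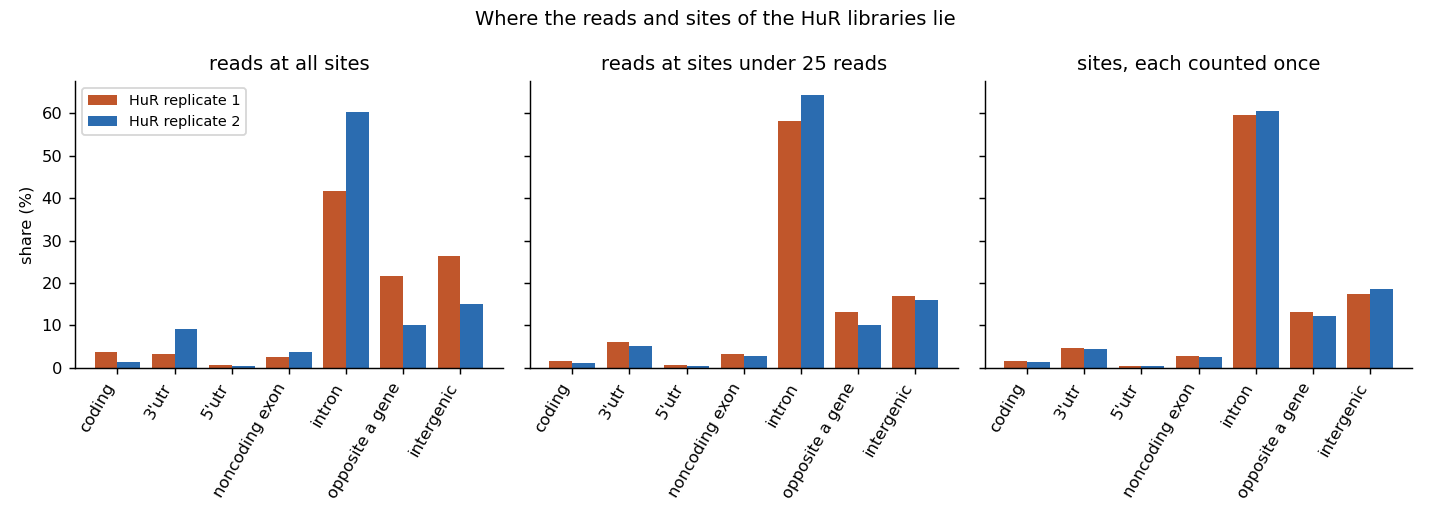
Share (%) of reads at all sites, of reads at sites under 25 reads, and of sites counted once, by region of GENCODE 44 on the strand of the site; orange bars are HuR replicate 1 and blue bars HuR replicate 2. By reads, introns hold 41.8% and 60.4% in replicates 1 and 2, and by sites 59.5% and 60.4%.

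The authors' own classes in the tables also gave rRNA, tRNA, miRNA and repeats. Sites they class as rRNA held 1.25% of the reads of replicate 1 and 3.05% of replicate 2, with 20.2 and 22.6 events per 100 reads. Sites classed as miRNA held 0.0158% and 0.104%, with 13.6 and 9.75 events per 100 reads. Sites classed as tRNA held 0.218% and 0.117%, and repeats held 14.6% and 11.6%. The low conversion at rRNA and miRNA was thus common to the libraries, and its share of reads was higher in replicate 2.

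The clusters tables differed in number and make-up. Replicate 1 had 39351 clusters, all with at least 2 conversion locations, and replicate 2 had 1513157, of which 737068 had fewer. A replicate 2 cluster lay on 83.7% of the replicate 1 clusters, and a replicate 1 cluster on 2.14% of the replicate 2 clusters. Among replicate 2 clusters with 2 or more locations, which the paper's methods require of a cluster, that share was 3.84%. In the class of 5 to 24 reads, the mean T content was 40.2% and 40.0%, the share of T positions in reads that were converted was 11.1% in both, and there were 96.9 and 104 events per 100 reads. In that class 3'UTRs held 20.0% of replicate 1 clusters and 5.91% of replicate 2 clusters, and introns held 65.2% and 71.7%. At 100 or more reads the 3'UTR shares were 2.79% and 26.7%. In the class of 5 to 24 reads, 729609 of 1370287 replicate 2 clusters had fewer than 2 locations, so the values of that class compare unlike sets. Over clusters of any reads with 2 or more locations, the mean T content was 39.6% in replicate 1 and 43.1% in replicate 2. The 3'UTR shares of those clusters were 19.5% and 8.64%.

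Reads per gene were compared over 12070 genes with a mean of 5 or more RPM in the 2 libraries, by the log2 ratio of RPM, replicate 2 over replicate 1, with an offset of 0.5 reads. A log2 ratio of at least 1 in size was called 2-fold. Of these genes, 6413 were higher in replicate 2 (53.1%), 1676 higher in replicate 1 (13.9%) and 3981 within 2-fold. The median log2 ratio was 1.07, and relative to that median the direction of the counts turned, with 656 genes higher in replicate 2 and 2868 in replicate 1. Across genes r was 0.52 (rho 0.62). Genes are not independent replicates. Of the genes higher in replicate 1, 1497 of 1676 (89.3%) had at least 50% of their reads there at a single site, with a median of 13.6 events per 100 reads. Of those higher in replicate 2, 225 of 6413 (3.51%) had at least 50% of their replicate 2 reads at a single site, and the median was 102 events per 100 reads.

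With the sites under 25 reads, 12093 of 13707 genes lay within 2-fold (88.2%), 493 were higher in replicate 2 (3.6%) and 1121 in replicate 1 (8.18%). The median log2 ratio was 0.05 and r was 0.92 (rho 0.92). Both libraries had more reads in longer genes (rho with gene length 0.41 and 0.36), which the genes share across the libraries; r was not adjusted for length. A fixed limit of 25 reads removes more of replicate 2 for a gene bound strongly. With the limit of replicate 2 raised to 84.3 reads, by the ratio of depths, r was again 0.92, and 424 (3.15%) and 1398 (10.4%) of 13467 genes were higher in replicate 2 and replicate 1. Counting conversion events instead of reads over all sites gave r = 0.71, a median log2 ratio of 0.59, 2677 of 11440 genes higher in replicate 2 (23.4%) and 1204 in replicate 1 (10.5%). With each site counted once, r was 0.96 and 222 and 317 genes were higher in replicate 2 and replicate 1.

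**Figure D5:**
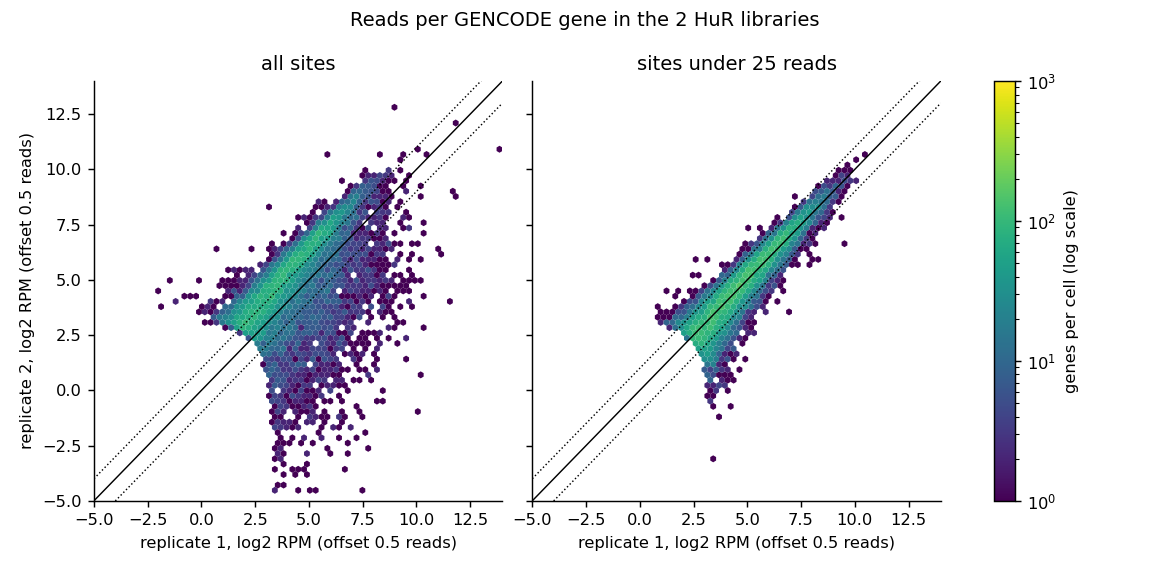
Log2 RPM per GENCODE gene (offset 0.5 reads) in HuR replicate 1 (x) against replicate 2 (y), from all sites (left, 12070 genes) and from sites under 25 reads (right, 13707 genes); colour is the number of genes per cell on a log scale, the line is equality and dotted lines mark 2-fold. The cloud of genes far below the line on the left, high in replicate 1, is not seen on the right, where 88.2% of genes lie within 2-fold.

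Gene type and region split the comparison further. Of 9970 protein-coding genes, 5767 were higher in replicate 2 and 1064 in replicate 1, with a median log2 ratio of 1.18. Of 1942 lncRNA genes, 578 and 556 were, with a median of 0.34. Of 22 processed pseudogenes, 2 were higher in replicate 2 and 19 in replicate 1, against 53.1% and 13.9% of all genes. The median was 1.22 over the 330 shortest genes, 1.38 over the 1668 next in length and 0.09 over the 439 longest. By 3'UTR reads alone 2580 of 2870 genes were higher in replicate 2 (89.9%, against 53.1% of genes by all reads), with a median of 1.81. 3'UTRs held 3.32% of the reads of replicate 1 and 9.11% of those of replicate 2, so the totals already leaned that way. By coding reads the median over 262 genes was −3.57. With sites under 25 reads these medians were −0.19 in 3'UTRs and −0.10 in coding sequence. By coding reads at all sites, 171 of the 262 genes were higher in replicate 1 and 63 in replicate 2, with r = −0.23. A gene can pass a limit on the mean through 1 library alone, as the processed pseudogene ENSG00000251123 did with 101 and 0.0623 RPM. The counts of pseudogenes, and the counts and medians by 3'UTR and coding reads, can therefore follow in part from the filter. Intron reads gave r = 0.92 over 12040 genes at sites under 25 reads, and 3'UTR reads 0.55 over 3296 genes.

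The genes with the largest ratio towards replicate 1 drew their reads from a single unconverted site. ACTL9, an actin-like gene, had 1852 reads in replicate 1 and 0 in replicate 2, at least 2081-fold lower against 3 reads. SFRP2, a secreted modulator of Wnt signalling, had 1137 and 0, at least 1278-fold lower, and the lncRNA genes ENSG00000253110 and ENSG00000289050 had 948 and 640 reads in replicate 1 and 0 in replicate 2. L1CAM, a neural cell adhesion molecule, had 10272 and 15 reads, of which 99.9% in replicate 1 lay at a single site, with 0.0487 events per 100 reads. MDFI, an inhibitor of myogenic regulators, had 1610 reads and 1 read, a ratio of 1.84e-04 (4.66e-06 to 0.00103). PABPN1L, ENSG00000251123, ARHGEF17-AS1 and ENSG00000290820 had log2 ratios of −10.38 to −9.76. In all 10 genes at least 98.5% of the replicate 1 reads lay at a single site, and events were at most 0.124 per 100 reads. Whether reads at these sites came from the gene at that position was not tested.

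The genes with the largest ratio towards replicate 2 were of more than one kind. HIF1A-AS3, an lncRNA antisense to HIF1A, had 15 and 2506 reads, a ratio of 49.6 (29.99 to 88.7), and 95.7% of its replicate 2 reads lay at a single site with few events (3.27 per 100 reads over the gene). RGN, which encodes the calcium-binding protein regucalcin, had 87 and 10989 reads, with a top site of 99.4% of reads and 192 and 198 events per 100 reads. MIR22HG, the host of miR-22, had 28 and 1404 reads with 0.712 events per 100 reads in replicate 2, and RNY1, a Y RNA, had 28 and 1334 with 68.1. SLCO5A1, an organic anion transporter gene, had 4953 and 247668 reads, at intron sites that the authors class as rRNA, and ENSG00000283907, with 529 and 49289 reads, held another such site. HDX, a homeobox gene, was different, with 22 and 1371 reads spread over sites, 93.9 events per 100 reads in replicate 2, and a log2 ratio of 4.18 at all sites and 3.38 at sites under 25 reads. LINC00326 was like it, with 33 and 1335 reads and log2 ratios of 3.56 and 2.76. ENSG00000224481 (52 and 2809 reads) and the miRNA gene AC079949.1 (204 and 7280 reads) again had at least 94.4% of their replicate 2 reads at a single site. Reads of rRNA, Y RNA and other multicopy genes can be split among copies, so the gene named is uncertain there.

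The genes with the most reads differed widely between the libraries. Over the 6461 genes with a mean of 20 or more RPM, 24.3% lay within 2-fold and r was 0.21. HASPIN, a histone H3 kinase, had 131230 reads in replicate 1 and 60891 in replicate 2, or 13777 and 1896 RPM, at least 99.9% of them in both libraries at a coding site (chr17:3627401-3627434 in replicate 1) with 0.322 and 1.94 events per 100 reads. KCNC4, a potassium channel gene, had 32682 and 14609 reads, at least 98.8% of them at a coding site (chr1:110768774-110768793) with 0.362 and 0.755 events per 100 reads. HFM1, a meiotic helicase gene, had 32807 and 149968 reads, or 3444 and 4670 RPM, a ratio of 1.36 (1.34 to 1.37), at an intron site the authors class as rRNA. ADGRL1, an adhesion receptor gene, had 30145 and 521 reads, of which 99.8% and 10.4% lay at the top site, and its log2 ratio was −7.61 at all sites and 0.16 at sites under 25 reads. ARL15, DISC1 and MAD1L1 likewise had log2 ratios of −2.64, −5.11 and −4.54 at all sites and of 0.19, −0.09 and −0.46 at sites under 25 reads. Whether reads at these single sites came from the genes named was not tested. ANKRD30BL, RINT1, PDE3A, NKAIN2 and HFM1 were chosen as the genes nearest to equality among the 50 with the most reads, so their ratios are a description. By events the log2 ratio was 1.74 in HFM1 and −0.99 in RINT1, and −0.12 and −0.11 in PDE3A and NKAIN2. ANKRD30BL had 14096 and 50876 reads, a ratio of 1.07 (1.05 to 1.09), with 63.2 and 58 events per 100 reads, but log2 ratios of −0.87 by events and −2.57 at sites under 25 reads (102 and 96 reads). RINT1, which tethers vesicles between Golgi and endoplasmic reticulum, had 6124 and 18661 reads, a ratio of 0.904 (0.878 to 0.931), with at least 94.2% at a single converted site. PDE3A, a cyclic nucleotide phosphodiesterase gene (6557 and 24064 reads), and NKAIN2 (7576 and 29374 reads) had log2 ratios of 0.12 and 0.20. In NKAIN2 the top site held 56.4% of the reads in replicate 1 and 3.43% in replicate 2, so near-equal totals were spread over sites differently. ZNF229 had 6104 and 51333 reads, a log2 ratio of 1.32, at least 99.1% of them at the same intron site.

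Of 25 mRNAs described as HuR targets, 21 passed the filter. Of these, 20 were higher in replicate 2, against 53.1% of all genes, and 1, NCL, was within 2-fold. The median log2 ratio was 1.66, which is 0.59 above the median of all genes. MDM2, which degrades p53, had 587 and 5429 reads, a ratio of 2.74 (2.52 to 2.99), with 96.4 and 109 events per 100 reads. BCL2, an inhibitor of apoptosis, had 637 and 4705 reads, a ratio of 2.19 (2.02 to 2.38). ACTB, cytoplasmic actin, had the highest ratio, with 107 and 2774 reads and a log2 ratio of 2.94, and 61.7% of its replicate 2 reads were at a single site. NCL, nucleolin, had 480 and 1891 reads and 17.7 and 98.1 events per 100 reads, with 80% of its replicate 1 reads at a single site. ELAVL1 itself had 403 and 3195 reads, of which 51.1% and 62.4% lay in its 3'UTR with 94.7 and 106 events per 100 reads. By conversion events 11 of 21 targets were higher in replicate 2, against 23.4% of all genes, with a median of 1.05. At sites under 25 reads 21 of 22 were within 2-fold, against 88.2% of all genes, with a median of −0.05. Over all 25 genes 3'UTRs held 33.0% of the reads in replicate 1 and 44.5% in replicate 2, and introns 47.2% and 45.0%.

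RNA-binding protein genes lay on the same side by reads. Against the median of all genes, the median of the HuR targets was 0.46 higher by events and −0.10 at sites under 25 reads, and the lists of 3'UTR binding proteins, splicing factors, long noncoding RNAs, ribosomal proteins and elongation factors turned sign in the same way. Of 17 genes of AU-rich element and other 3'UTR binding proteins, 15 were higher in replicate 2, against 53.1% of all genes, with a median log2 ratio of 1.51. By events only 3 of 16 were (18.8%), against 23.4% of all genes, and 1 was higher in replicate 1, with a median of 0.76. PUM2, which encodes a translational repressor, had 1618 and 12474 reads and 78.6 and 106 events per 100 reads. ZFP36L1 had the highest ratio, with 91 and 2822 reads, and ELAVL4, a neuronal relative of HuR, the lowest, with 208 and 592 reads and a log2 ratio of −0.25. Of 25 SR and hnRNP splicing factor genes, 24 were higher in replicate 2, against 53.1% of all genes, with a median of 1.77. By events 14 of 25 were, against 23.4% of all genes, with a median of 1.02. At sites under 25 reads the direction turned, with 11 of 25 higher in replicate 1 (8.18% of all genes were), none in replicate 2 and a median of −0.87. The fixed limit removes more of replicate 2 for strongly bound genes, so this turn and that of the other lists can follow in part from the limit. The lists were not recomputed with the limit raised in replicate 2. HNRNPC, which binds U tracts, had 2229 and 25127 reads, of which 1793 and 4556 lay at sites under 25 reads, with log2 ratios of 1.74 and −1.14. PTBP1 had the lowest ratio at all sites, with 208 and 1142 reads and log2 ratios of 0.70 and −1.23. SRSF7 had the highest, with 77 and 1611 reads.

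Of 13 long noncoding RNAs, 10 were higher in replicate 2 (53.1% of all genes were), 1 in replicate 1, and the median was 1.49. MALAT1, a nuclear lncRNA, had 2839 and 48672 reads, a ratio of 5.09 (4.90 to 5.28), with 94.7 and 105 events per 100 reads; 225 of its replicate 2 reads and 481 of its replicate 1 reads lay at sites under 25 reads. MIR17HG, the host of the miR-17-92 cluster, had 858 and 23965 reads, of which 74.1% and 92.1% were at a single site, with 20.3 and 11.8 events per 100 reads. MEG3, an imprinted lncRNA, was lower in replicate 2, with 610 and 81 reads.

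Genes of the translation machinery and zinc finger genes had medians near those of the lists above. Over all genes tested 53.1% were higher in replicate 2 and 13.9% in replicate 1, to be read beside each count of a list. Of 55 ribosomal protein genes, 45 were higher in replicate 2 and 1 in replicate 1, with a median of 1.48. RPS23 was the exception, with 3352 and 1102 reads and 98.2% of its replicate 1 reads at a single site, and RPL37A had 373 and 3055 reads. Of 12 elongation factor and poly(A)-binding protein genes, 9 were higher in replicate 2, with a median of 1.55. PABPC1 had 318 and 4110 reads with 99.7 and 99.8 events per 100 reads, and EEF1A1 had 184 and 2794. Of 8 chaperone genes, 7 were higher, with a median of 1.74. HSPA9, the mitochondrial HSP70, had 127 and 1718 reads, and HSPA1B 179 and 960. Of 169 chromosome 19 zinc finger genes, 142 were higher in replicate 2 and 3 in replicate 1, with a median of 1.58. ZNF738 (8 and 951 reads) had the highest ratio and ZNF576 (998 and 161 reads, 98.1% at a single site in replicate 1) the lowest. ZNF738 had 0.84 and 29.6 RPM, so it passed the filter only through replicate 2. At sites under 25 reads, 56 of 61 ribosomal protein genes, 10 of 12 elongation factor genes, 7 of 7 chaperone genes and 170 of 189 zinc finger genes lay within 2-fold. Of all genes 88.2% did, so these counts are not particular to the lists.

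Of 64 replication-dependent histone genes 7 passed the filter, all higher in replicate 2, with a median log2 ratio of 2.36. Some passed only through replicate 2, such as H2BC11 with 2.10 and 18.9 RPM, so the count and the median follow in part from the filter. H2BC6 had 49 and 862 reads and H2BC11 20 and 608. At sites under 25 reads 7 of 10 were higher in replicate 2 (3.6% of all genes were), with a median of 1.34, under the same limit.

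Few small RNA genes passed the filter, and several did so only through replicate 2, where they were high, so that a higher level there was fixed by the filter. MIR203 had 0.84 and 18.7 RPM and SNORD3B-1 had 2.10 and 25.6 RPM. Of 351 miRNA genes with a read 7 passed and all were higher in replicate 2, among them MIR203 (8 and 599 reads) and MIRLET7B (47 and 355). Of 10 snRNA genes 6 were higher in replicate 2 (60%, against 53.1% of all genes), and RNU2-2P had 226 and 1043 reads. Of 4 RNA polymerase III transcripts 2 were higher, with RNY5 at 143 and 4206 reads and RMRP at 88 and 347, and 1 snoRNA gene passed, SNORD3B-1 with 20 and 822. None of these lists had a member past the filter at sites under 25 reads.

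The mitochondrial genome was the list that leaned to replicate 1. Of 13 genes past the filter, 3 were higher in replicate 1 and 1 in replicate 2, with a median log2 ratio of −0.40. MT-RNR2, the 16S rRNA, had 1918 and 5370 reads, or 201 and 167 RPM, and 88.8 and 46.9 events per 100 reads. MT-RNR1, the 12S rRNA, had 913 and 6439 reads, with 67.8 and 13.3 events per 100 reads, and MT-CO3 had 170 and 126 reads. By events 13 of 15 genes were higher in replicate 1, against 10.5% of all genes, with a median of −1.93. Mitochondrial sites held 0.0637% and 0.0663% of the reads of the libraries.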

How the data were processed

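The authors sequenced single-read libraries on an Illumina HiSeq, removed adapters, mapped reads to hg19 with Bowtie and ran PARalyzer, which keeps uniquely mapping reads with at most 2 T-to-C mismatches. The deposited values used are raw counts per site of reads, conversion locations and conversion events; the deposited ModeScore fraction was not used. Removal of PCR duplicates is not stated.

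Sites were given to a region and 1 gene on their own strand by their midpoint, from GENCODE 44 on GRCh37 (exons before gene bodies, small RNAs before protein-coding genes before lncRNAs, the shorter gene on a tie). Site sequences matched GRCh37 in 20000 of 20000 sites per table, outside the mitochondrial genome, whose annotation may be a few bases off. Read counts per gene were scaled to RPM of the library total. With 1 library a side no test was run. Ratios have exact Clopper-Pearson and shares Wilson intervals at 95%. The members, gene lists and rules were chosen with earlier results of these data known. Named genes were the 10 largest ratios each way and the 10 highest means at 20 or more RPM, the 5 of the 50 highest nearest to equality, and up to 4 members of a list; XIST and the Y chromosome were left out. A list member that this rule names is not reported here. ELAVL1 was named outside this rule, as the gene of HuR. The most-read sites of 30 bases or fewer are not printed. Overlap, calls and intervals were tested on simulated data. Software was pysam 0.24.0, matplotlib 3.10.9, numba 0.67.0, scipy 1.17.1, pandas 2.3.3 and numpy 2.4.6, run under Python 3.11.15.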

Additional observations from a re-analysis of the deposited data

How the results depend on the processing

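No paired analysis was possible because replicate numbers exist in the HuR group alone, and leaving out a replicate leaves no comparison. Of the counts of genes higher in replicate 2 and in replicate 1 (6413 and 1676), centring on the median log2 ratio gave 656 and 2868, a mean of 20 or more RPM 3961 and 933, no filter 15636 and 9653, and each site counted once 222 and 317. The count higher in replicate 2 was 2677 by events, 740 without sites at background, 493 without sites of 25 or more reads, 424 with that limit raised in replicate 2, and 2997 without unconverted sites of 25 or more reads (the last 2 chosen after seeing the data). In that order of settings, from 20 RPM on and without centring, r was 0.21, 0.84, 0.96, 0.71, 0.81, 0.92, 0.92 and 0.73. The intron share of replicate 1 was 59.5% by sites, 56.9% without background and 58.3% without sites of 25 or more reads, and the 3'UTR share of replicate 2 was 4.38% by sites. Events per 100 reads of replicate 1 at 100 or more reads became 83.2 without sites under 2 events per 100 reads (91.6 in replicate 2), a rise that the choice of sites fixes, and 9.33 without sites at background (103 in replicate 2). The share of sites with 25 or more reads found in the other library was 52.4% and 20.5% against sites of 5 or more reads, 87.7% and 14.9% by clusters, and 16.6% in replicate 1 without background. Other alternatives moved these values by less than the SD of the libraries or the counts by less than 1.5 times.

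The median over genes was −0.00209 with each site counted once. Log2 ratios of named genes stayed on the same side of 2-fold in 243 cases. Genes called 2-fold lost the call with the same sign in 28 cases and turned sign in 17, and genes not called passed 2-fold in 6. A change of sign was counted only for genes called 2-fold. Without the 10 most-read sites of each library they became 6.55 for KCNC4, 1.67 for ARL15, 1.03 for ADGRL1, −5.51 for ZNF229, −4.30 for SLCO5A1 and −0.0347 for ENSG00000283907, because a site was removed from 1 library and kept in the other. ADGRL1 was 0.0817 by sites, 0.39 without background, 0.16 without sites of 25 or more reads and 0.46 without unconverted sites. ARL15 was 0.21 without background, 0.19 without sites of 25 or more reads and 0.12 with the raised limit. ENSG00000283907 was −1.79 without sites of 25 or more reads and −2.11 with the raised limit, SLCO5A1 −0.0652 with the raised limit, and ENSG00000224481 −0.97 without background.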
